A study of Homo sapiens with 28 samples.

Results

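The genes described here are the 246 protein-coding zinc finger genes of human chromosome 19 whose symbol is ZNF followed by digits and, in some cases, letters. The rule that defines them uses name and position and no measured value. They were taken from 19821 protein-coding genes, and the other 1164 protein-coding genes of chromosome 19 served as their comparison. A peak was assigned to a gene if any base of it fell at most 1 kb from the start or the end of the gene record, and the gene then held that peak. The members ran from 2469 to 487995 bp, with a median of 23151 bp, against a median of 12687 bp for the other chromosome 19 genes.

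The study immunoprecipitated chromatin from T47D, a luminal breast cancer cell line that carries the oestrogen receptor, and sequenced the recovered DNA. Antibodies to ZHX2, CTCF and acetylated lysine 27 of histone H3 (H3K27ac) were each used on cells kept in hypoxia and on cells kept in normoxia. An antibody to the Flag tag was used on hypoxic cells carrying ZHX2 of a form labelled PA or of the WT form, and the labels do not spell out the letters PA or say how much endogenous ZHX2 these cells had. Each of these 8 groups had 2 samples and 1 deposited peak list, and the remaining 12 samples, 4 of them titled Flag, had no antibody and no list. All 8 groups were therefore of the same line, Flag signal was measured in hypoxia alone, and no normoxic Flag group was analysed here. With 1 list a group there was no replicate spread, so no difference below has a p-value. The 95% intervals given (Wilson for a share, Newcombe for a difference) cover counting error over genes only and are too narrow where neighbouring genes share a peak.

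Most zinc finger genes of chromosome 19 encode C2H2 proteins with a KRAB domain, which recruits the co-repressor TRIM28 and, through it, the histone methyltransferase SETDB1. They arose by repeated tandem duplication, stand in dense clusters, and many silence transposable elements. In human cells the 3′ exons that encode their finger arrays are known to carry the silencing mark H3K9me3, whereas their promoters are commonly active. ZHX2, which has zinc fingers and homeodomains, is known as a target of the von Hippel-Lindau ubiquitin ligase, CTCF is a DNA-binding protein that anchors chromatin loops, and H3K27ac marks active promoters and enhancers.

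Start sites and strands came from RefSeq promoter windows on GRCh38.p14, which reach from 250 bases before to 50 bases after a start site and matched 216 of the 246 members. The following 5 windows are shown, each on its gene's strand, because they carried the strongest or most condition-dependent peaks among the members or, for ZNF558, because its gene ends gave no peak. ZNF507 lies on the plus strand at chr19:32345360-32345659 and ZNF264 on the plus strand at chr19:57191250-57191549. ZNF671 lies on the minus strand at chr19:57727575-57727874, ZNF554 on the plus strand at chr19:2819618-2819917 and ZNF558 on the minus strand at chr19:8832255-8832554. Capitals mark ACGTG or GCGTG, the core of hypoxia response elements, and CTTCCGG, the core of sites for ETS factors, on either strand; in ZNF554 they mark instead AGGNGGC, the core of the CTCF motif.
ZNF507: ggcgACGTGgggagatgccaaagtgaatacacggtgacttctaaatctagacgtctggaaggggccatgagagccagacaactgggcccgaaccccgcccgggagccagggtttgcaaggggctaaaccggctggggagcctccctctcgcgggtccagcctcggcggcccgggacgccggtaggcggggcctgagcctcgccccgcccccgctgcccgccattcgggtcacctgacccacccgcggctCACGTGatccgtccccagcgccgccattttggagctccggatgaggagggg
ZNF264: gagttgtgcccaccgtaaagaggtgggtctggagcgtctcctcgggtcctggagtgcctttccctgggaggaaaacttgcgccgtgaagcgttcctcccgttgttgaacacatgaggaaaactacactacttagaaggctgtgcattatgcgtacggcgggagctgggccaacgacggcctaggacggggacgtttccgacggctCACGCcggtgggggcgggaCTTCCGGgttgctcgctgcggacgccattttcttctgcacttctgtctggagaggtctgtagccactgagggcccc
ZNF671: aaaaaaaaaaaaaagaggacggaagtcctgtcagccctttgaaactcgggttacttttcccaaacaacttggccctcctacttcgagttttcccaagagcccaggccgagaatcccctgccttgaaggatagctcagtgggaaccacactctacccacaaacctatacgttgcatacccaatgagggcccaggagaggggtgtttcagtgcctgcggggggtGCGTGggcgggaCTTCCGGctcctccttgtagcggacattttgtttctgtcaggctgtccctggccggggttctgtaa
ZNF554: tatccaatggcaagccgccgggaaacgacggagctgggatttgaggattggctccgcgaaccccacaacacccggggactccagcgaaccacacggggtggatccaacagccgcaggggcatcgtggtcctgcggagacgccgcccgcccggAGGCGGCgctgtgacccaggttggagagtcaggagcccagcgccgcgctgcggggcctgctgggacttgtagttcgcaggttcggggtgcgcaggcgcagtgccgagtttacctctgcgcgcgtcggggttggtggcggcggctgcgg
ZNF558: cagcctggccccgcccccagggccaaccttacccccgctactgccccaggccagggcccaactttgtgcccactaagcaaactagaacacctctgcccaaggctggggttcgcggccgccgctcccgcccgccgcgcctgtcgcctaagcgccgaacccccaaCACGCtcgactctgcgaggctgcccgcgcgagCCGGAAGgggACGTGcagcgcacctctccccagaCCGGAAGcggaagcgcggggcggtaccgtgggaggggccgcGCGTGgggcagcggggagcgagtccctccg

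The run CACGTG of ZNF507 began 1 base before the start site, at -1, and the ZHX2 summits lay 22 bp downstream of that site in hypoxia and 3 bp downstream in normoxia. In ZNF554 the marked AGGCGGC began at -98 bp, and the CTCF summits lay at -96 bp in hypoxia and -92 bp in normoxia. ZNF671 had GCGTG at -28 bp and CTTCCGG at -16 bp, and its ZHX2 summit, in hypoxia, lay at -131 bp. ZNF264 had CACGC, which is GCGTG on the other strand, at -45 bp and CTTCCGG at -26 bp, and its ZHX2 summits lay at -28 bp in hypoxia and -7 bp in normoxia.

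Motifs were counted in the 216 member windows and in windows of other genes, as a description with no test. CTTCCGG, which was looked for after these windows had been read, was found on either strand in 97 of 216 member windows (44.9%), against 13% of 969 windows of other chromosome 19 genes, 33% of 215 windows of ZNF genes of other chromosomes and 14.1% of 15812 windows of protein-coding genes with 1 window a gene. CCAAT was found in 54.2% of member windows, against 37.4% of those of other chromosome 19 genes and 36.4% of those of all protein-coding genes. ACGTG was found in 17.6% of member windows, against 23% and 23.7%, and GCGTG in 50.5%, against 45.1% and 44.1%. AGGNGGC was found in 36.1%, against 46.6% and 42.1%, and the GC box GGGCGG in 67.1%, against 65.7% and 58.3%. Over all 35116 windows of the table the shares were 10.3% for CTTCCGG, 34.6% for CCAAT, 21.4% for ACGTG, 36.5% for GCGTG, 35.9% for AGGNGGC and 45% for GGGCGG. The letters CTTCCGG did not separate members by ZHX2: it was in 47.9% of the 119 member windows under a hypoxia ZHX2 peak and in 41.2% of the 97 without one, whereas in other chromosome 19 genes the shares were 20.6% and 8.24%. The median number of CpG pairs was 21 in member windows with that peak and 19 in those without it, against 29 and 12 in other chromosome 19 genes.

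Acetylation marked the gene ends of most members in both conditions, and ZHX2 was listed at fewer members in normoxia than in hypoxia. The lists differ in length, peak width and threshold. Shares are therefore compared between sets of genes and not between antibodies. H3K27ac peaks were held by 209 members in hypoxia (85%, 95% interval 80 to 88.9) and by 208 in normoxia (84.6%, 79.5 to 88.5). Over all protein-coding genes the shares were 65.2% in hypoxia and 64.4% in normoxia. ZHX2 peaks were held by 130 members in hypoxia (52.8%, 46.6 to 59) and by 43 in normoxia (17.5%, 13.2 to 22.7), against 56.3% and 29.7% of all protein-coding genes. CTCF peaks were held by 121 members in hypoxia (49.2%, 43 to 55.4) and by 129 in normoxia (52.4%, 46.2 to 58.6), against 59.6% and 61.9% of all protein-coding genes. The strongest hypoxia ZHX2 peaks of the 130 members were 126 distinct peaks, since some neighbours share one. Flag peaks were held by 93 members for PA (37.8%, 32 to 44) and by 125 for WT (50.8%, 44.6 to 57), against 50.2% and 58.5% of all protein-coding genes.

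**Figure D1:**
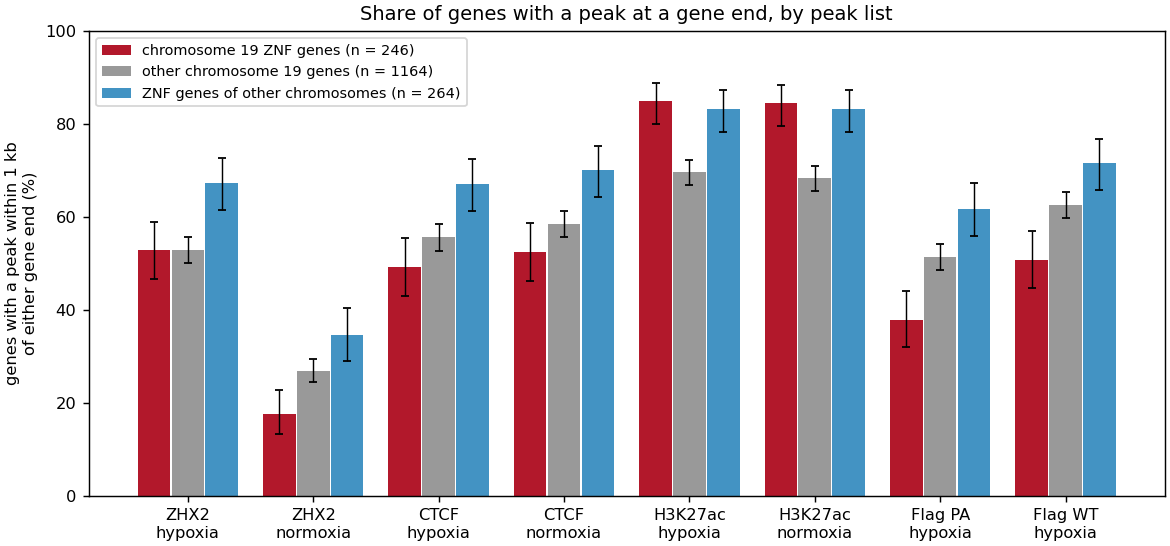
Share of genes (%, vertical axis) with a peak within 1 kb of either gene end in each of the 8 peak lists, for the 246 chromosome 19 ZNF genes (red), the 1164 other chromosome 19 genes (grey) and the 264 ZNF genes of other chromosomes (blue), with 95% Wilson intervals as error bars. The members are above the other chromosome 19 genes for H3K27ac (85% against 69.6% in hypoxia), level with them for hypoxia ZHX2 (52.8% each) and below them for normoxia ZHX2 and both Flag lists.

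Set against the other chromosome 19 genes, the members' share was higher for H3K27ac by 15.4 percentage points in hypoxia (9.75 to 20.1) and by 16.2 in normoxia (10.5 to 21). It was the same for hypoxia ZHX2, with a difference of 0.0105 points (-6.85 to 6.79). Members minus other chromosome 19 genes came to -9.41 points for normoxia ZHX2 (-14.4 to -3.62), -13.6 for PA Flag (-20.1 to -6.73) and -11.7 for WT Flag (-18.5 to -4.93). The CTCF differences were -6.4 points in hypoxia and -6.07 in normoxia, with intervals that reached past 0. The other chromosome 19 genes held hypoxia and normoxia CTCF peaks in 55.6% and 58.5% of cases, normoxia H3K27ac peaks in 68.4%, PA Flag peaks in 51.4% and WT Flag peaks in 62.5%. ZNF genes of other chromosomes held hypoxia ZHX2 peaks in 67.4% of cases and H3K27ac peaks in 83.3%.

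These differences changed when genes with a shared end were left out, which also changes the set of genes compared, and the cause was not tested. An end window overlapped that of another gene in 26.8% of members and in 53.7% of other chromosome 19 genes. Without such genes the H3K27ac differences were 30.6 points in hypoxia and 32.9 in normoxia, and the hypoxia ZHX2 difference was 12.7 points (4.27 to 20.9). No clear difference was left for normoxia ZHX2 (0.152, -5.91 to 7.14), PA Flag (1.23, -6.79 to 9.54) or WT Flag (4.91, -3.5 to 13.2). For normoxia CTCF it was 1.39 (-6.98 to 9.74). These 4 values were above 0, but their intervals held 0. Gene records of several members also begin upstream of a start site. At RefSeq start sites, a window added after the data were seen, H3K27ac was found in 198 of 216 members in hypoxia (91.7%) and 199 in normoxia (92.1%), against 67.5% and 66.3% of other chromosome 19 genes. There, hypoxia ZHX2 was found in 61.6% of members, against 51.3% of other chromosome 19 genes, and normoxia ZHX2 in 14.4%, against 23.1%.

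The strongest CTCF peaks at member ends ranked lower in their lists than those at other chromosome 19 genes, and so did those at ZNF genes of other chromosomes. The fold enrichment of a peak is the authors' value and is read here only within its own list, as a percentile of all peaks of that list. The strongest CTCF peak of a member had a median fold of 9.81 in hypoxia (percentile 35.7), against 23.4 (percentile 53.8) in other chromosome 19 genes. In normoxia these medians were 12.5 (percentile 40.3) for members and 25.7 (percentile 55.8) for other chromosome 19 genes. At ZNF genes of other chromosomes they were 9.42 in hypoxia (percentile 34.7) and 14.2 in normoxia (percentile 43.5). For hypoxia ZHX2 the median percentile was 70.7 in members and 76.8 in other chromosome 19 genes, and for hypoxia H3K27ac 83.8 and 85.4. H3K27ac peaks were narrower at member ends, with median widths of 2190 bp in hypoxia and 2043 bp in normoxia, against 3224 and 2918 bp at other chromosome 19 genes. At ZNF genes of other chromosomes these widths were 2402 and 2329 bp, near those of members.

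All 8 lists met at 13 members: ZNF77, ZNF414, ZNF653, ZNF254, ZNF507, ZNF585B, ZNF432, ZNF865, ZNF580, ZNF787, ZNF551, ZNF544 and ZNF837. These made up 5.28% of members, against 14.3% of other chromosome 19 genes. At ZNF653 the ZHX2 peaks lay at the 3′ end and not at the start site. No list had a peak at the ends of 29 members (11.8%), against 20.3% of other chromosome 19 genes. Of those 29, 24 had a RefSeq start site, and 13 of the 24 held a peak of some list there, 11 of them with H3K27ac. ZNF558, which in human neural progenitor cells represses the mitophagy gene SPATA18, was such a case. Its start site, shown above, held peaks in 7 lists, with a fold of 3.32 for hypoxia ZHX2, 44.7 and 105 for CTCF in hypoxia and in normoxia, and 19 and 16.6 for H3K27ac in hypoxia and in normoxia. The list without a peak there was normoxia ZHX2.

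**Figure D2:**
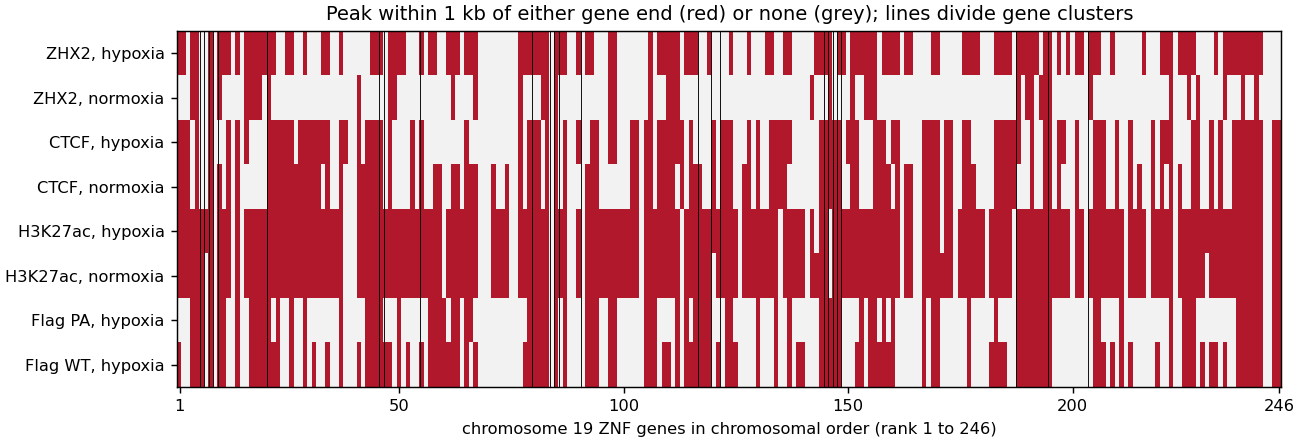
Each column is 1 of the 246 chromosome 19 ZNF genes in chromosomal order (rank on the horizontal axis) and each row 1 peak list, with red for a peak within 1 kb of either gene end, grey for none, and black lines between gene clusters. The H3K27ac rows are nearly solid (209 and 208 members) and the normoxia ZHX2 row is sparse (43). Around rank 70 the hypoxia CTCF row has fewer members than the normoxia CTCF row, whose list is longer.

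ZHX2 was listed at 3.02 times as many member ends in hypoxia as in normoxia (130 against 43), compared with 1.96 times in other chromosome 19 genes (615 against 313). Of the members, 91 (37%) held it in hypoxia alone, where 28.4% of all protein-coding genes did. It was in normoxia alone at 4 members (1.63%), against 1.85% of all genes, in both at 39 (15.9%; all genes 27.8%) and in neither at 112. Without genes that share an end the ratio was 3 in members and 2.33 in other chromosome 19 genes, and at start sites it was 4.29 and 2.22. The hypoxia list was longer, with 32343 peaks against 14586 in normoxia. With both lists held to 14586 peaks by the authors' score, ZHX2 was found at 81 members in hypoxia and 43 in normoxia, with 46 in hypoxia alone and 8 in normoxia alone, and at 33% and 26.9% of other chromosome 19 genes.

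The members with the strongest ZHX2 peaks stood near the top of their lists. ZNF507, a C2H2 gene outside the large clusters, had a ZHX2 fold of 34.6 in hypoxia (percentile 99.9) and 13.1 in normoxia (percentile 99.1). It held peaks in all 8 lists, with CTCF folds of 8.31 in hypoxia and 19.3 in normoxia and H3K27ac folds of 12.1 and 13.4. ZNF264 followed with 17 in hypoxia (percentile 99.6) and 5.05 in normoxia, then ZNF43 with 9.37 and 4.25. ZNF787, with 6.91 at its 3′ end, and ZNF57, with 6.66, followed ZNF507 in the normoxia list. The strongest hypoxia peak of ZNF787, with 3.83, lay at its start site, where the normoxia fold was 3.28. Both lists thus had the same leading member.

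Among members with ZHX2 in hypoxia alone, the strongest peak was at ZNF671, a gene known for promoter methylation in cervical and other carcinomas, with a fold of 8.52 (percentile 97.9). ZNF579 had 8.06, ZNF274 had 7.05 and ZNF175 had 6.81. ZNF274, a KRAB protein, is itself known to bring SETDB1 to the 3′ exons of zinc finger genes. These 4 peaks stood at percentile 95.5 or above in the hypoxia list, and all 4 genes had no ZHX2 peak at their ends in normoxia. The 4 members with ZHX2 in normoxia alone were ZNF581, with a fold of 4.25 (percentile 78.2), ZNF285 with 3.64, ZNF587B with 3.28 and ZNF443 with 2.92 (percentile 27.7). They were all of their kind, whereas the 4 above were the strongest of 91, so the 2 sets are not compared in strength. The 91 members of hypoxia alone had a median fold of 3.73 in the hypoxia list (percentile 64.7), against 5.41 for the 39 with ZHX2 in both.

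**Figure D3:**
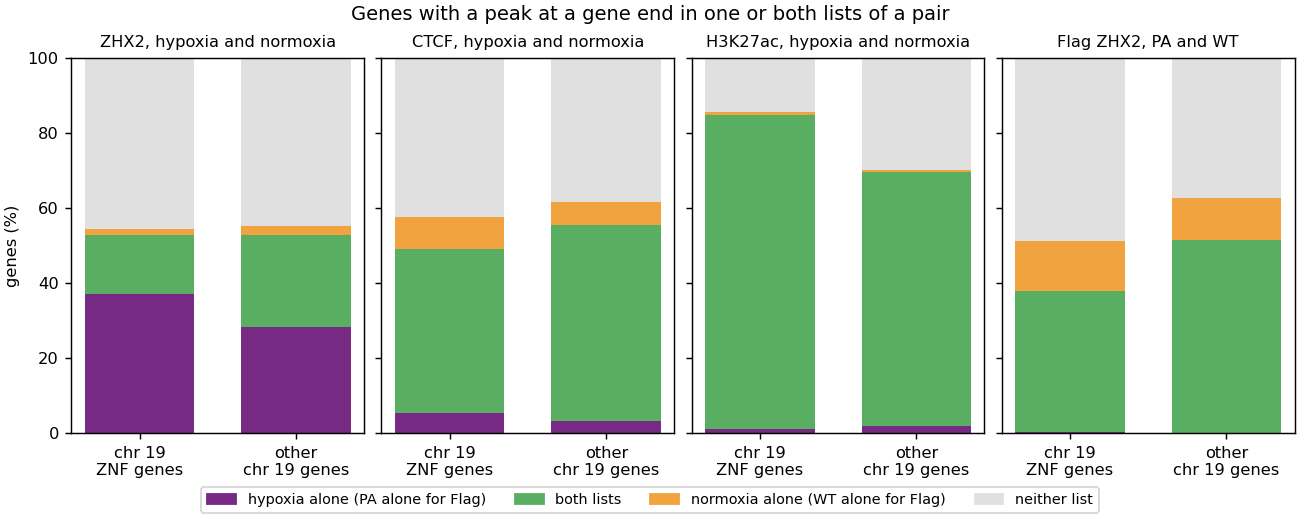
Share of genes (%, vertical axis) with a peak at a gene end in the hypoxia list alone (purple), in both lists (green), in the normoxia list alone (orange) or in neither (grey), for chromosome 19 ZNF genes and other chromosome 19 genes; for Flag, purple is PA alone and orange WT alone. ZHX2 has the widest purple share, at 37% of members and 28.3% of other chromosome 19 genes, and H3K27ac is nearly all green.

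ZHX2 at gene ends mostly stood with H3K27ac, in members and in other genes. In hypoxia, 128 of the 130 members with ZHX2 also held H3K27ac (98.5%), against 94.5% of other chromosome 19 genes and 92.9% of all protein-coding genes with ZHX2. In normoxia 42 of 43 members did (97.7%), against 90.4% and 89.3%. All 91 members with ZHX2 in hypoxia alone already had an H3K27ac peak in normoxia, as did 95.1% of such other chromosome 19 genes and 92.6% of such protein-coding genes. The reverse share was lower in members: of those with H3K27ac, 61.2% held ZHX2 in hypoxia (54.5 to 67.6), against 71.7% of other chromosome 19 genes (68.5 to 74.7). In normoxia 20.2% did (15.3 to 26.2), against 35.6% (32.3 to 38.9). Without genes that share an end the hypoxia shares were 63% and 72.3% and the normoxia shares 20.5% and 30%. All 3 proteins or marks met at 80 members in hypoxia (32.5%) and 23 in normoxia (9.35%), against 37.6% and 18.9% of other chromosome 19 genes. H3K27ac without ZHX2 or CTCF was found at 45 members in hypoxia (18.3%) and 65 in normoxia (26.4%), against 8.08% and 12.4%.

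H3K27ac itself was held by nearly the same members in hypoxia and in normoxia. It was in both lists at 206 (83.7%; all protein-coding genes 63.8%), in hypoxia alone at 3 (ZNF358, ZNF574 and ZNF814) and in normoxia alone at 2 (ZNF600 and ZNF229). These were 1.22% and 0.813% of members, against 1.45% and 0.58% of all protein-coding genes. The folds of those 5 peaks were 6.56 or lower, whereas the strongest member peaks had 31.1 at ZNF700, 27.5 at ZNF552 and 26.2 at ZNF524 in hypoxia, and 27.7 at ZNF414, 27.3 at ZNF329 and 27.2 at ZNF552 in normoxia. The ZNF552 peak was 34195 bp wide in hypoxia and 33854 bp in normoxia.

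CTCF was in both lists at 108 members (43.9%; all protein-coding genes 56.7%), in hypoxia alone at 13 (5.28%; all protein-coding genes 2.86%) and in normoxia alone at 21 (8.54%; all protein-coding genes 5.19%). With lists of equal length the order turned, to 25 in hypoxia alone and 8 in normoxia alone. The peaks that were in 1 list were weak in it. In normoxia alone the folds ran from 2.87 to 10.1, with a median of 5.42 and none above percentile 34.6, and in hypoxia alone from 3.35 to 7.47. The highest of normoxia alone were ZNF99 with 10.1, ZNF317 with 8.6, and ZNF528 and ZNF880, which share a peak, with 7.39. The highest of hypoxia alone were ZNF563 with 7.47, ZNF792 with 5.01, ZNF226 with 4.79 and ZNF461 with 4.23. The strongest CTCF peaks were in both lists. ZNF554 had 270 in hypoxia and 353 in normoxia, ZNF329 had 269 and 341, and ZNF653 had 233 and 328, all at percentile 97 or above. Those of ZNF653 lay at its 3′ end, and its start site held CTCF in hypoxia alone, with a fold of 5.13.

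Of members with H3K27ac in hypoxia, 55.5% held CTCF (48.7 to 62.1), against 70.7% of other chromosome 19 genes (67.5 to 73.8), and in normoxia 59.6% and 74% did. Without genes that share an end the hypoxia shares were 50% and 69.6%. Of the members with ZHX2 in hypoxia, 62.3% held CTCF there too, against 73.7% of other chromosome 19 genes.

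Flag peaks accompanied endogenous ZHX2 at a smaller share of members than of other chromosome 19 genes. Of the 130 members with ZHX2 in hypoxia, 74 held a PA Flag peak (56.9%, 48.3 to 65.1) and 91 a WT Flag peak (70%, 61.6 to 77.2). In other chromosome 19 genes with ZHX2 these shares were 75.9% for PA and 89.3% for WT. Without genes that share an end they were 58.6% for PA and 71.7% for WT in members, against 71.1% and 86%. Neither Flag list had a peak at 38 of the 130 members (29.2%, 22.1 to 37.6), against 10.6% of other chromosome 19 genes with ZHX2 (8.38 to 13.2) and 12.7% of all such protein-coding genes. Among these members were ZNF264 (ZHX2 fold 17), ZNF615 (9.14), ZNF671 (8.52), ZNF730 (7.24) and ZNF175 (6.81). Those 38 had a median ZHX2 fold of 3.86 and the 91 with WT Flag one of 4.14. Conversely, 34 members held Flag without endogenous ZHX2, 19 with both forms and 15 with WT alone. These were 13.8% of members, against 15.4% of other chromosome 19 genes and 9.84% of all protein-coding genes. Of the genes without endogenous ZHX2 they were 29.3% in members, against 32.6% in other chromosome 19 genes and 22.5% in all protein-coding genes.

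PA Flag was found at 92 of the 125 members with WT Flag (37.4% of members had both; all protein-coding genes 49.7%), and at 1 member, ZNF100, without it (0.407%; all protein-coding genes 0.479%). WT Flag was alone at 33 members (13.4%), against 8.79% of all protein-coding genes and 11.3% of other chromosome 19 genes. By peak width, the first of these were ZNF761 (1550 bp), ZNF20 (1478 bp), ZNF526 (1344 bp), ZNF101 (1275 bp), ZNF724 (1250 bp) and ZNF14 (1112 bp). Where both forms had peaks, the widest WT peaks were 4979 bp at the neighbours ZNF580 and ZNF581, 3527 bp at ZNF507, 2394 bp at ZNF524, 2265 bp at ZNF146 and 2187 bp at ZNF566. The PA list held 16019 peaks and the WT list 31278. With the 16019 widest peaks of each, PA was alone at 10 members and WT alone at 12. At many members with both forms, such as ZNF57, ZNF77, ZNF414 and ZNF91, the PA and WT peaks had the same start and end. At ZNF440 and ZNF738 they differed. Width is thus not a property of 1 form at such members, and the 2 lists may not be independent calls. How they were made is not given, so the overlap of PA with WT is a description of the lists only.

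Members with a known role differed among themselves. The ZHX2 peaks of ZNF91, ZNF93 and ZNF582 were weak, at percentiles 16.8, 17.7 and 5.52 of the hypoxia list, which is longer than the normoxia list. ZNF91, which represses SVA elements, held a ZHX2 peak in hypoxia alone (fold 2.63), H3K27ac with 14.2 in hypoxia and 11.7 in normoxia, and both Flag forms. Its CTCF peaks, with 12.4 in hypoxia and 15.1 in normoxia, lay at the 3′ end and not at the start site. ZNF93, which represses LINE-1 elements, held ZHX2 in hypoxia alone (2.65) and H3K27ac with 16 in hypoxia and 14.4 in normoxia, without CTCF or Flag. ZNF568, whose mouse counterpart represses a placental Igf2 transcript, held CTCF (93.4 in hypoxia, 95.1 in normoxia) and H3K27ac (13.1 and 14.3) without ZHX2 or Flag. ZNF808, whose loss in humans leads to pancreatic agenesis, held CTCF (49.5 in hypoxia, 84.3 in normoxia), H3K27ac (21.4 and 24.1) and both Flag forms without endogenous ZHX2. ZNF224, known to repress aldolase A, likewise held CTCF (14.5 and 13.5), H3K27ac (11.1 and 9.12) and both Flag forms. ZNF582, whose promoter methylation has been used in tests for cervical neoplasia, held ZHX2 in hypoxia alone (2.27), CTCF (147 in hypoxia, 160 in normoxia) and H3K27ac (21.5 and 20.1). ZNF331, an imprinted gene, held CTCF alone at its gene ends (51.1 in hypoxia, 91.2 in normoxia), and ZHX2 in hypoxia (3.12), H3K27ac (7.97 and 7.88) and both Flag forms at inner start sites. ZNF296 held ZHX2 in hypoxia alone (6.2), CTCF at a gene end but not at its start site (3.99 and 3.53), H3K27ac (20.8 and 23.5) and both Flag forms.

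Members less than 250 kb apart formed 26 groups, 12 of them with at least 5 genes. In all 12, ZHX2 was at more members in hypoxia than in normoxia. The group from ZNF175 to ZNF331 (51.6 to 53.6 Mb, 39 members) held it at 23 members in hypoxia and 4 in normoxia, and the group from ZNF264 to ZNF446 at the end of the long arm (57.2 to 58.5 Mb, 43 members) at 22 and 7. ZHX2 and CTCF did not rank the groups alike. The group from ZNF317 to ZNF846 (9.14 to 9.79 Mb, 11 members) held ZHX2 in hypoxia at 81.8% and CTCF at 27.3%. The next group, from ZNF653 to ZNF791 (11.5 to 12.6 Mb, 25 members), held ZHX2 in hypoxia at 40% and CTCF at 76%. H3K27ac ranged from 60% to 100% over the 12 groups in hypoxia and in normoxia.

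**Figure D4:**
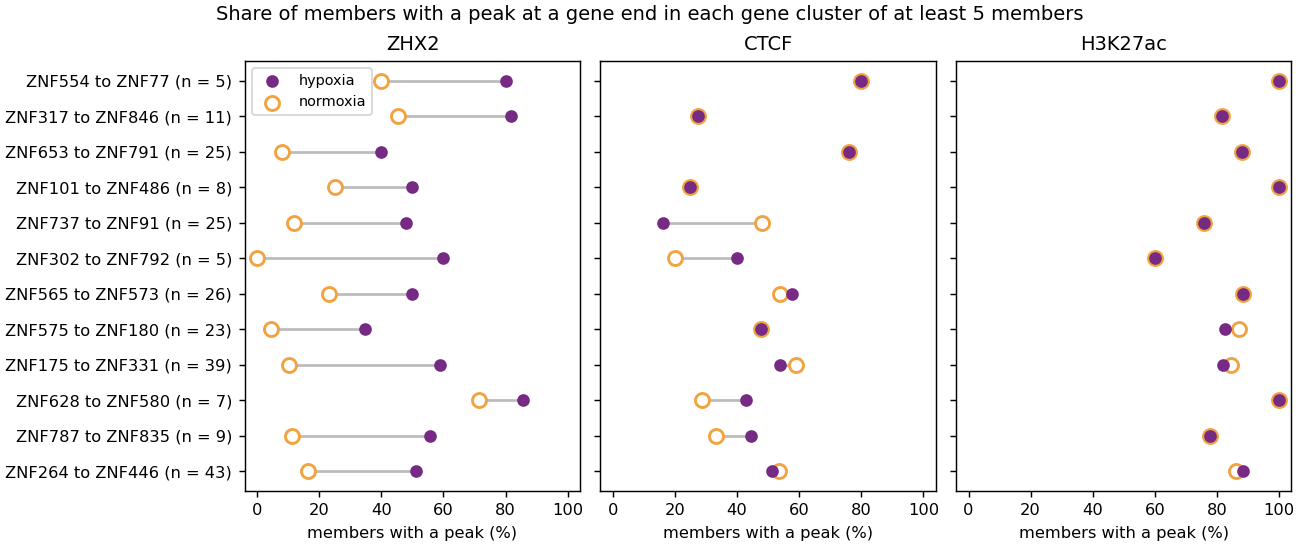
Share of members (%, horizontal axis) with a ZHX2, CTCF or H3K27ac peak at a gene end in hypoxia (filled purple) and in normoxia (open orange) for the 12 gene clusters of at least 5 members, named by their first and last gene in chromosomal order. ZHX2 is to the right in hypoxia in every cluster; CTCF in the cluster from ZNF737 to ZNF91 is at 16% in hypoxia and 48% in normoxia.

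The group from ZNF737 to ZNF91 (20.5 to 23.4 Mb, 25 members) stood apart for CTCF in the full lists, with 4 members in hypoxia and 12 in normoxia. It supplied 8 of the 21 members with CTCF in normoxia alone: ZNF100, ZNF43, ZNF430, ZNF708, ZNF729, ZNF738, ZNF85 and ZNF99. Their folds ran from 4.59 to 10.1, at or below percentile 34.6 of the normoxia list, and the part of the lists' thresholds in this difference was not tested. The group held H3K27ac at 19 members in hypoxia and at 19 in normoxia.

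Where the strand was known, more members had a peak at the 5′ end than at the 3′ end in each of the 8 lists. Hypoxia ZHX2 was within 1 kb of the 5′ end in 115 of 216 members (53.2%) and of the 3′ end in 8 (3.7%), against 48.4% and 15.3% of other chromosome 19 genes. Over all 15812 protein-coding genes with a strand these shares were 55.3% and 7.11%. Normoxia ZHX2 was at the 5′ end of 35 members and the 3′ end of 7 (16.2% and 3.24%; all genes 27.4% and 4.4%). CTCF was at the 5′ end of 103 members in hypoxia and 109 in normoxia (47.7% and 50.5%; all genes 54.7% and 56.6%), and at the 3′ end of 14 and 11 (6.48% and 5.09%; all genes 15.6% and 16.8%). H3K27ac was at the 5′ end of 181 members in each condition (83.8%; all genes 64.1% in hypoxia and 63.4% in normoxia), and at the 3′ end of 19 and 13 (8.8% and 6.02%; all genes 19% and 16.6%). PA Flag was at the 5′ end of 85 members and WT Flag at that of 116 (39.4% and 53.7%; all genes 50.3% and 58.6%), and each was at the 3′ end of 6 (2.78%; all genes 7.2% and 9.54%). ZHX2 summits lay a median of 12 bp downstream of the 5′ end in hypoxia, with quartiles of -95 and 135 bp.

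**Figure D5:**
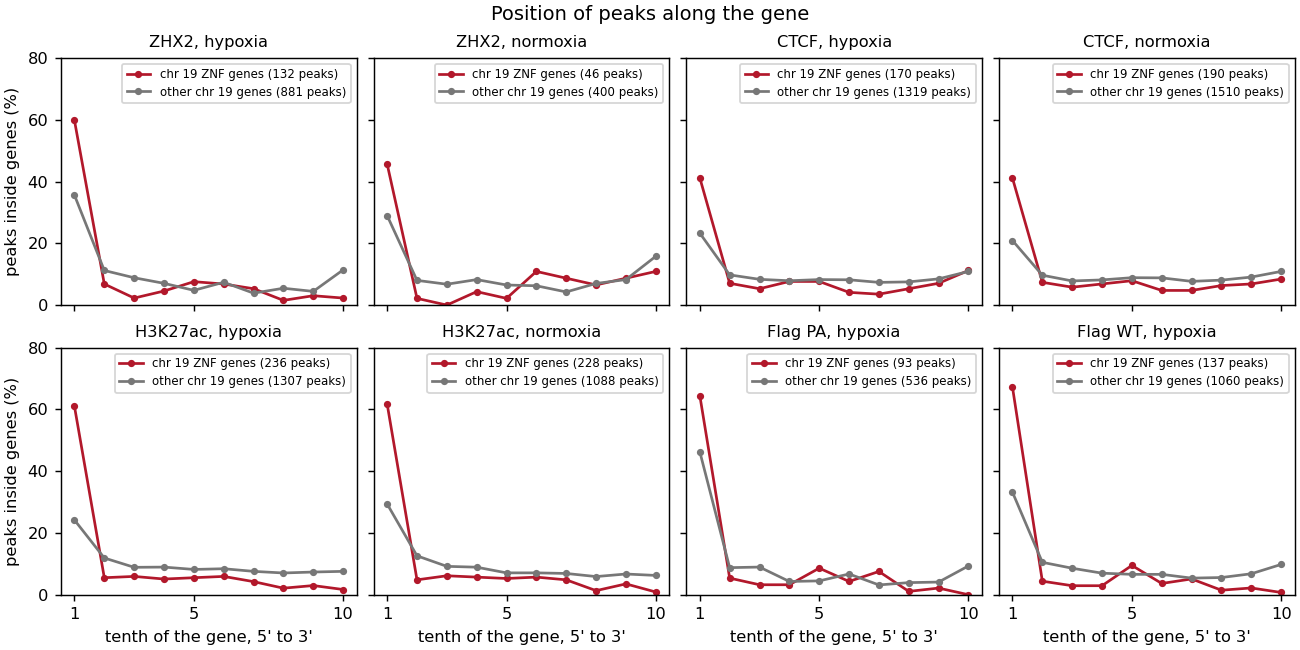
Share of the peaks inside genes (%, vertical axis) that fall in each of 10 equal parts of the gene from its 5′ to its 3′ end (horizontal axis), for chromosome 19 ZNF genes (red) and other chromosome 19 genes (grey), 1 panel a list, with the number of peaks in each legend. The part nearest the 5′ end holds 59.8% of member peaks and 35.6% of other peaks for hypoxia ZHX2, and that nearest the 3′ end holds 2.27% and 11.4%.

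Gene bodies of members held fewer peaks per length than those of other chromosome 19 genes in each list, but more than those of all protein-coding genes except for CTCF. Any peak that overlapped the gene record was counted, so peaks at the 5′ end were included, and these weigh more in short genes. Summed lengths were 7.18 Mb for members, 25.1 Mb for other chromosome 19 genes and 1291 Mb for all protein-coding genes. The part of gene length in this order was not tested. Hypoxia ZHX2 had 2.8 peaks per 100 kb of member gene body, against 5.09 in other chromosome 19 genes, and normoxia ZHX2 0.85 against 2.2. CTCF had 3.08 in hypoxia and 3.39 in normoxia, against 7.13 and 8.04, and H3K27ac 4.29 and 4.21, against 7.74 and 6.58. PA Flag had 1.76 and WT Flag 2.49, against 3.52 and 6.17. Over all protein-coding genes the densities were 1.77 for ZHX2 in hypoxia and 0.812 in normoxia, 3.47 and 3.94 for CTCF, 2.74 and 2.48 for H3K27ac, 1.12 for PA Flag and 1.84 for WT Flag. With each gene divided into 3 equal parts, hypoxia ZHX2 peaks numbered 91 in the 5′ part of members and 14 in the 3′ part, a ratio of 6.5, against 2.59 in other chromosome 19 genes, 6.3 in ZNF genes of other chromosomes and 3.65 in all protein-coding genes. The normoxia ZHX2 ratio was 1.69 in members, against 1.44, 2.92 and 3.29. The H3K27ac ratios were 8.33 in hypoxia and 8.95 in normoxia in members, against 2 and 2.68 in other chromosome 19 genes, 3.38 and 3.38 in ZNF genes of other chromosomes, and 2.03 and 2.3 in all protein-coding genes.

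A 3′ cluster was taken as at least 3 peaks of 1 list in the 3′ part of a gene, the last of 3 equal parts. For ZHX2 it was found at 2 of 216 members in hypoxia (0.926%; all protein-coding genes 1.04%) and 1 in normoxia (0.463%; 0.304%), against 12 and 2 of 969 other chromosome 19 genes. The first was ZNF540, whose 3 peaks lay between 19 and 20.6 kb before its 3′ end and within 1196 bp of an end of its neighbour ZNF571. At ZNF628 the 3 peaks lay 1.27 to 2.59 kb before the 3′ end, with folds of 4.97, 3.55 and 3.97. The normoxia cluster, at ZNF787, lay 0.927 to 4.87 kb before the 3′ end and included that gene's strongest peak.

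For CTCF, 3′ clusters were found at 2 members in hypoxia (0.926%; all protein-coding genes 6.99%) and 4 in normoxia (1.85%; 8.51%), against 31 and 35 other chromosome 19 genes. Such clusters need room, so shares were also taken over genes at least as long as the shortest member with one. In hypoxia (83510 bp) this gave 33.3% of 6 members, 45.9% of 37 other chromosome 19 genes and 27.1% of all protein-coding genes. In normoxia (28341 bp) it gave 4.88% of 82 members, 14.2% of 212 and 17.6%. These cut-offs were set by the members with a cluster, so they kept every member cluster and favour the members. In hypoxia they kept 17 of the 31 clusters of other chromosome 19 genes and 894 of the 1105 of all protein-coding genes. The shares over long genes are therefore not a fair comparison of members with other genes. ZNF536, the longest member, had 8 peaks in each list. All 8 in hypoxia and 7 of the 8 in normoxia lay within 63.4 kb of the 3′ end, and the highest folds were 206 and 205 in hypoxia and 204 and 187 in normoxia. ZNF577 had 5 in hypoxia and a cluster of 3 in normoxia, with a highest fold of 34.3 and 54.1. ZNF444 and ZNF69 had clusters of 3 in normoxia. The peaks of the ZNF69 cluster lay 971, 349 and 4830 bp from an end of another gene, ZNF763, with folds of 165, 3.67 and 6.36. For H3K27ac the cluster was at ZNF814 in both conditions (0.463% of members each; all genes 3.42% in hypoxia and 2.61% in normoxia), against 17 and 9 other chromosome 19 genes. Among genes of at least 35748 bp, a cut-off set in the same way, the H3K27ac share was 2.04% of 49 members in each condition. For all genes it was 7.91% in hypoxia and 6.12% in normoxia. Neither Flag list had a 3′ cluster at a member (all genes 0.221% for PA and 1.21% for WT), where PA had 2 and WT 14 at other chromosome 19 genes.

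The co-repressor genes through which KRAB proteins act were listed apart, with 24 genes of the TRIM28, heterochromatin, DNA methylation, HUSH and NuRD systems. Hypoxia ZHX2 was at 21 of them and normoxia ZHX2 at 15, with 6 in hypoxia alone (ATF7IP, CBX1, DNMT1, DNMT3A, MPHOSPH8 and PPHLN1) and none in normoxia alone. Over all protein-coding genes the shares were 56.3% in hypoxia, 29.7% in normoxia and 28.4% in hypoxia alone, so the 6 of 24 in hypoxia alone were near the share over all genes. CTCF was at 17 in hypoxia and 16 in normoxia, against 59.6% and 61.9% of all genes. TRIM28 had ZHX2 folds of 4.71 in hypoxia and 3.65 in normoxia, SETDB1 4.99 and 3.47, and CBX3, a heterochromatin protein gene, 21.2 and 15.4. H3K27ac was at 23 of the 24 in each condition, UHRF1 being the exception, against 65.2% and 64.4% of all genes, and PA and WT Flag were at 22 each, against 50.2% and 58.5%.

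As a check of the labelled cell type, H3K27ac was at the ends of 7 of 7 luminal markers in hypoxia and in normoxia. It was at 2 of 5 basal, 1 of 4 immune and 1 of 5 stromal markers in each condition. KRT5, KRT14 and TP63 were among those without it.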

How the data were processed

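The build GRCh38 (hg38) and the tools cutadapt, Bowtie2 and MACS2 are named, per the submitters' processing notes; versions, thresholds, pooling and use of the samples without antibody are not given in the sources used here. The authors deposited 1 peak list a group, holding positions and, except for Flag, a score, a fold enrichment (ratio), and −log10 p and −log10 q values. The lists hold 14617 to 88273 peaks, and read depth is unknown. ZHX2 and CTCF lists give summits; midpoints stand in for H3K27ac and Flag. The lowest deposited −log10 q was 1.3 for ZHX2, 5 for CTCF and 3.47 for H3K27ac, so antibodies are not compared in number.

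Peaks of the autosomes and of X were tied to RefSeq genes of GRCh38.p14 with Python 3.11.15, pandas 2.3.3 and numpy 2.4.6, needing 1 bp of overlap. Counting was tested on simulated peaks. The rule for members uses no measured value, but it and the lists were chosen with earlier results of these data known. Named members are the 3 strongest per list, the 4 strongest of each condition alone, up to 6 Flag members by width, up to 4 per list with 3′ clusters, and 12 with a published role. ZNF264, ZNF671 and the like without Flag, and members in all lists or none, were named after their values were seen. Protein features were not analysed here. Alternatives covered the window, threshold, width, overlap, shared ends, gene set, list length and cluster definition.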

Additional observations from a re-analysis of the deposited data

How the results depend on the processing

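Of 334 values recomputed under an alternative, 246 stayed within 1.5 times of the count (or within the interval of the difference) and 84 moved further. The other 4, differences whose interval left out 0, reversed in sign, with new intervals that held 0. Some of the 246 could not have moved. Both CTCF lists already start at a −log10 q of 5, so that threshold repeated the main CTCF values. Stricter cluster rules likewise left the 0 Flag clusters at 0. A further 6 differences whose interval held 0 changed sign: hypoxia ZHX2 (-3.58 points at a −log10 q of at least 5, -0.874 with other zinc finger genes as members, -6.19 with a 3 kb window) and 3 for CTCF given next. The cause was not tested except where noted. No paired analysis was possible because each group has 1 peak list, and for the same reason no sample could be left out.

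Leaving out genes with shared ends reversed the sign of the differences for normoxia ZHX2 (0.152 points), PA Flag (1.23) and WT Flag (4.91), with intervals that then held 0. It moved those for hypoxia ZHX2 (12.7), H3K27ac (30.6 hypoxia, 32.9 normoxia) and normoxia CTCF (1.39), and left, with fewer genes, 79 members with hypoxia CTCF, 7 with CTCF and 0 with H3K27ac in hypoxia alone. Start sites in place of gene ends, an alternative added after seeing the data, reversed the sign for WT Flag (1.31 points, -5.99 to 8.27). They moved hypoxia ZHX2 (10.3), PA Flag (-3.81), CTCF (1.65 hypoxia, 1.12 normoxia) and H3K27ac (24.2 and 25.9). H3K27ac in hypoxia alone was then at 0 members and in normoxia alone at 1.

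Lists of equal length gave 46 members in hypoxia alone and 8 in normoxia alone for ZHX2, 25 and 8 for CTCF, and 10 PA alone and 12 WT alone. The upper 50% by score gave 39 members with CTCF in hypoxia and 45 in normoxia, 3 and 9 in each alone, differences of -13.4 points in both, and densities of 1.17 and 1.39 (CTCF) and 1.52 and 0.515 (ZHX2) per 100 kb. It left 3′ clusters at 1 member for CTCF in each condition and at 0 for ZHX2 and H3K27ac.

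A 3 kb window gave differences of -15.7 (hypoxia CTCF), -13.9 (normoxia CTCF) and -16.4 points (normoxia ZHX2), and 3′-end peaks at 20 and 13 members (ZHX2 in hypoxia and normoxia), 30 and 34 (CTCF), 36 and 34 (H3K27ac) and 14 (WT Flag), with H3K27ac in hypoxia alone at 1. A 500 bp window gave 3′-end peaks at 9 and 7 members (CTCF) and 3 for each Flag form, and 1 member each with H3K27ac in hypoxia or normoxia alone. Peaks reduced to 200 bp gave H3K27ac differences of 23.1 and 23.8 points, 3′-end peaks at 11 and 4 members (H3K27ac) and 1 for each Flag form, and H3K27ac in normoxia alone at 4. An overlap of 50% left 1 member with H3K27ac in hypoxia alone, and a −log10 q of at least 5 left 1 in normoxia alone and no normoxia ZHX2 cluster (0).

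Clusters of at least 2 peaks were at 7 and 8 members (CTCF in hypoxia and normoxia), 4 (normoxia ZHX2), 2 (normoxia H3K27ac) and 1 (WT Flag). Clusters of at least 4 peaks were at 1 (normoxia CTCF) and 0 (both ZHX2 and both H3K27ac lists). In the last 50% of the gene they were at 4 (hypoxia ZHX2), 4 (hypoxia CTCF) and 2 (normoxia H3K27ac), and in the last 10 kb at 2 (normoxia CTCF). Peaks merged within 1 kb left 1 (normoxia CTCF) and 0 (both ZHX2 and both H3K27ac lists), and leaving out 3′-end peaks left 0 for normoxia ZHX2. Read depth is unknown, so weak peaks missing from 1 list cannot be told apart from absent ones.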
